A study of Homo sapiens with 9 samples.

Results

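The anaphase-promoting complex, or cyclosome (APC/C), was followed through 10 genes: *CDC27*, *CDC16*, *CDC23*, *ANAPC7*, *CDC26*, *ANAPC1*, *ANAPC4*, *ANAPC5*, *ANAPC2* and *FZR1*. The members were all probe sets that the annotation of the Affymetrix PrimeView array assigns to a single one of these genes, which gave 29 of 44988 single-gene probe sets and 10 of 18132 genes. A probe set is a group of short probes against 1 stretch of transcript, and a gene can have several. The genes were proposed with the siRNA-against-siControl values in view, *CDC27* having passed the study's threshold with both siRNAs. Their differences from siControl are therefore given as values with standard errors and without a p. Counts of members past a threshold in these contrasts are a description and no test. The difference between the siRNAs was not itself used to choose the members and was tested. It is made of the same siRNA-against-siControl values that were in view, which its p and interval do not take into account.

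NCI-H1993 is an established human lung adenocarcinoma line that expresses *TDRD9*, the gene of a germline RNA helicase. Of 9 cultures of this single line, 3 received siTDRD9-2 and 3 received siTDRD9-1, which are different siRNAs against the *TDRD9* transcript, and 3 received a control siRNA (siControl). RNA was taken at 72 h and each culture was hybridized to 1 array. All values below are log2 signals from the robust multi-array average (RMA) method, so a difference of 1 is a doubling, and levels are compared between groups within a probe set, apart from the check of the cell type, which sets marker levels against the array medians. In such bulk samples a change in the mix of cells, for example of cell cycle phases, and a change of RNA per cell cannot be told apart.

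The *TDRD9* signal was 6.05 to 6.12 with siTDRD9-2 and 4.28 to 4.94 with siTDRD9-1, against 6.65 to 6.93 with siControl. All 5 epithelial markers were bright, with group means of 11.3 to 13.4, where the array medians were 5.75 to 5.80. Group means of the 3 fibroblast and 3 endothelial markers lay at or below 6.06. Those of the 3 haematopoietic markers lay between 3.47 and 7.34, with *CD14* at 6.95 to 7.34 and the other 2 below the array medians. The 4 lung lineage markers *NKX2-1*, *NAPSA*, *SFTPB* and *SFTPC* lay between 5.15 and 6.61 and the 3 colon markers between 4.07 and 6.61, with *CDX2* highest. The lineage markers thus do not set lung apart from colon here, and the lung origin rests on the sample label. The submitters' text on RNA isolation names a different line, and that on labelling a kit for whole transcripts. Groups and cells were taken from each sample's own labels. The 24 poly-A spike-in probe sets, controls added to the RNA, averaged 7.59 to 7.77 with siTDRD9-2 and 7.38 to 7.72 with siTDRD9-1, against 8.22 to 8.48 with siControl. A probe set at the 3′ part of 18S ribosomal RNA read 13.2 to 13.9 with siTDRD9-2 and 13.1 to 13.7 with siTDRD9-1, against 11.3 to 12.4 with siControl. The signal gap between the 3′ and 5′ probe sets of *GAPDH*, a sign of RNA quality, was -0.14 to -0.08 with siTDRD9-2 and -0.10 to -0.07 with siTDRD9-1, against -0.04, 0.28 and 0.18 with siControl. That of *ACTB* averaged 0.34 with siTDRD9-2 and 0.29 with siTDRD9-1, against 0.57 with siControl, and siControl replicates 2 and 3 were the highest of the 9 in both gaps. These controls moved with the same groups as the *CDC27* values below, and their part in those values was not tested.

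The APC/C is a ubiquitin ligase that marks mitotic proteins such as securin and the cyclins for the proteasome, which lets sister chromatids part and cells leave mitosis. Tetratricopeptide subunits form an arm that binds the coactivators CDC20 and CDH1, a platform joins this arm to the catalytic pair of a cullin-like and a RING subunit, and the coactivators pick the substrates. The spindle checkpoint holds the complex back through a CDC20-bound inhibitor until chromosomes are attached. CDH1, the product of *FZR1*, keeps the complex active in G1.

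RefSeq promoters were found for all 10 genes (11 start sites, build GRCh38.p14), and 4 are shown because they belong to the genes whose probe sets differed most from each other in the mean of both siRNAs, or differed most between the siRNAs. Each is the 250 bases before the start, 5′ to 3′ on the gene's strand. Capitals mark CCAAT or its reverse complement ATTGG, the CHR letters TTTGAA or TTCAAA, which are known from promoters of genes used in G2 and mitosis, and the E2F letters TTCCCGCC or GGCGGGAA, with both strands searched and no overlap between the motifs shown.
CDC27, chr17:47189296-47189545, minus strand: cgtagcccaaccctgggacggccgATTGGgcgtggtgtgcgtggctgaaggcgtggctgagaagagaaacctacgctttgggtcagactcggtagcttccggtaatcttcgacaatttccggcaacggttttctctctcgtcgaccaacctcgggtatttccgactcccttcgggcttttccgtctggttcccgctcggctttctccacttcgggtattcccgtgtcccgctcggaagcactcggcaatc
CDC16, chr13:114234647-114234896, plus strand: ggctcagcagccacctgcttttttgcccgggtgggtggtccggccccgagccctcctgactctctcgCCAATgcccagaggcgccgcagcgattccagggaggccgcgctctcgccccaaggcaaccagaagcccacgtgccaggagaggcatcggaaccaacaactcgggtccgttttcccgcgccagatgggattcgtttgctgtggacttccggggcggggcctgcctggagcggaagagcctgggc
CDC23, chr5:138213324-138213573, minus strand: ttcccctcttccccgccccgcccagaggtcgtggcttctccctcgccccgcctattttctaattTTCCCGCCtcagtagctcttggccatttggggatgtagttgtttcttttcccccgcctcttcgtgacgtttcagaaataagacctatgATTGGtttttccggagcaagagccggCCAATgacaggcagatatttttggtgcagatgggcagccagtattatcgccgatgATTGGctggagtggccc
ANAPC5, chr12:121352412-121352661, minus strand: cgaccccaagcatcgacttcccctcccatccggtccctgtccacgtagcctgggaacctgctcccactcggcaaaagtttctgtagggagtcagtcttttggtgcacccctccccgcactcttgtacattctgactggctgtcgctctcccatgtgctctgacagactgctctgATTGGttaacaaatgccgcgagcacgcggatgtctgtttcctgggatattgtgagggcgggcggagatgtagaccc
CCAAT letters stood in the promoters of 4 of the 10 genes, with 1 match each in *CDC27*, *CDC16* and *ANAPC5* and 3 in *CDC23*, and in 32.0% of 35116 promoters of the same length. CHR letters stood in 2 genes, *ANAPC7* and *FZR1* (13.3% of all promoters), and the E2F letters in 1, *CDC23* (2.72%). A match describes the letters of this window alone.

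*CDC27* encodes the subunit of the tetratricopeptide arm that binds the tails of the coactivators. Its brightest probe set, 11743401_x_at, read 9.41, 9.50 and 9.15 with siTDRD9-2, 9.33, 9.25 and 9.25 with siTDRD9-1, and 7.88, 8.11 and 7.76 with siControl. The probe set 11743400_s_at read 8.94, 9.02 and 8.79 with siTDRD9-2, 8.96, 8.86 and 8.79 with siTDRD9-1, and 7.63, 7.59 and 7.15 with siControl. At both probe sets every siRNA culture lay above every siControl culture, and the cultures of the siRNAs overlapped. The first was 2.70-fold higher with siTDRD9-2 (log2 difference 1.43, standard error 0.117) and 2.57-fold higher with siTDRD9-1 (1.36, standard error 0.117). The second was 2.76-fold higher with siTDRD9-2 (1.46, standard error 0.129) and 2.67-fold higher with siTDRD9-1 (1.42, standard error 0.129). These are the values that brought the gene into the set, and both comparisons share the siControl arrays.

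The other 3 *CDC27* probe sets did not follow. The probe set 11743402_at read 8.49, 8.46 and 8.49 with siTDRD9-2, 8.33, 8.46 and 8.35 with siTDRD9-1, and 8.27, 8.39 and 8.49 with siControl. The probe set 11743403_a_at read 8.09, 8.27 and 8.13 with siTDRD9-2, 8.05, 8.18 and 7.96 with siTDRD9-1, and 8.14, 8.26 and 8.22 with siControl. The probe set 11752920_a_at read 7.59, 7.66 and 7.44 with siTDRD9-2, 7.56, 7.54 and 7.35 with siTDRD9-1, and 7.47, 7.46 and 7.54 with siControl. At all 3 the cultures of the 3 groups overlapped, and the differences from siControl lay between -0.04 and 0.10 with siTDRD9-2 and between -0.14 and 0.00 with siTDRD9-1.

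**Figure D1:**
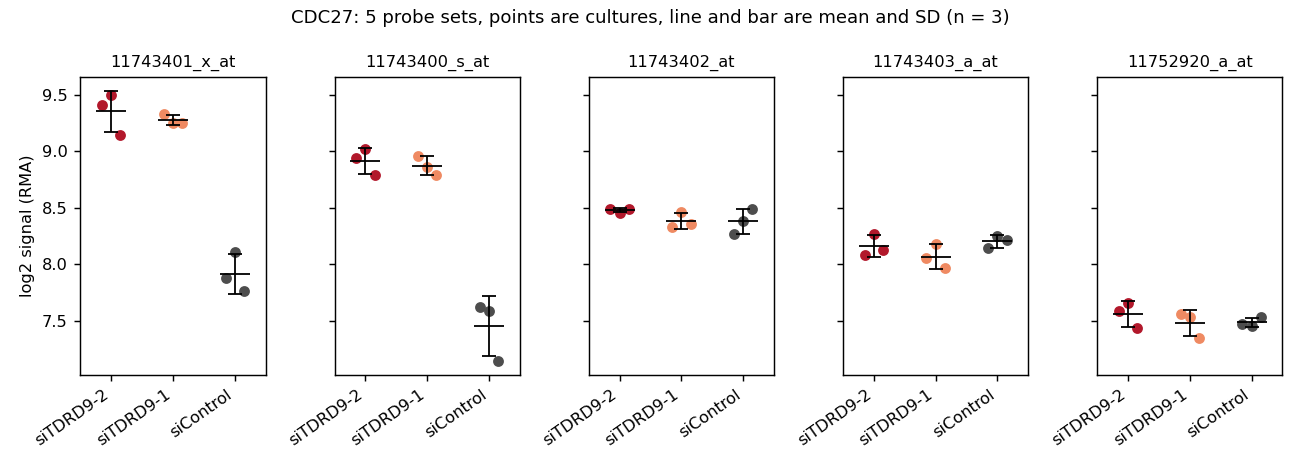
Log2 signal (RMA, vertical axis) of the 5 *CDC27* probe sets in 3 cultures per group, with points for cultures and lines and bars for the mean and SD. The siRNA cultures stand above the siControl cultures at 11743401_x_at and 11743400_s_at, and the groups overlap at the other 3 probe sets.

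The 2 *CDC27* probe sets that stood higher were designed on the same GenBank record, and the other 3 on 3 different records. Within a culture, the mean of that pair minus the mean of the other 3 was 1.12, 1.13 and 0.949 with siTDRD9-2, 1.16, 0.998 and 1.13 with siTDRD9-1, and -0.209, -0.181 and -0.625 with siControl. This gap was larger in all 6 siRNA cultures than in any of the 3 siControl cultures, and its sign has no meaning, as levels of different probe sets are not on 1 scale. The mean of the other 3 was 8.07 ± 0.0563 with siTDRD9-2, 7.98 ± 0.0863 with siTDRD9-1 and 8.02 ± 0.0604 with siControl (SD, n = 3 each). With the 5 probe sets averaged, *CDC27* was higher by 0.61 with siTDRD9-2 and by 0.53 with siTDRD9-1 (standard error 0.0753 each).

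The span of the *CDC27* differences, from the lowest to the highest probe set, was 1.51 with siTDRD9-2 and 1.55 with siTDRD9-1. The median spans over the 11734 genes with more than 1 probe set were 0.271 and 0.249. The gene was chosen on these differences, so nothing is read from the size of its span. In the names of the probe sets, x means that some probes can match other sequences and s that several transcripts share the probes. RefSeq lists 11 pseudogenes named for *CDC27*, against 6 for *ANAPC1*, 1 for *CDC26* and 0 for the other 7 genes. Which transcripts or copies the pair detects was not tested, as the probe sequences were not used here.

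The 5 probe sets of other genes whose pattern over the 9 arrays was most like that of 11743400_s_at belonged to *OGA* (11755972_a_at, Pearson r = 0.998), *SMC3* (11725680_at, 0.996), *CDC5L* (11719080_a_at, 0.995), *LMAN1* (11747181_a_at, 0.995) and *WDR36* (11723738_a_at, 0.995). *SMC3* encodes a core subunit of cohesin, the ring whose opening APC/C activity brings about. Its probe set was higher by 1.38 with siTDRD9-2 and by 1.24 with siTDRD9-1, beside 0.56 and 0.55 for *WDR36*. The arrays fall into siRNA and siControl arrays, so these correlations mostly follow the step between them, which many probe sets share, and are given as a description.

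*CDC16* and *CDC23* encode further tetratricopeptide subunits of the arm, and their probe sets also differed among themselves, over smaller spans. Of the 6 *CDC16* probe sets, 11746107_a_at read 7.44, 7.58 and 7.84 with siTDRD9-2, 7.42, 7.50 and 7.39 with siTDRD9-1, and 7.24, 6.89 and 7.24 with siControl. The probe set 11746106_a_at read 7.53, 7.82 and 7.94 with siTDRD9-2, 7.62, 7.67 and 7.59 with siTDRD9-1, and 7.50, 7.24 and 7.44 with siControl. All siRNA cultures lay above all siControl cultures at both. The differences at 11746107_a_at were 0.49 with siTDRD9-2 and 0.31 with siTDRD9-1 (standard error 0.125), and those at 11746106_a_at were 0.37 and 0.24 (standard error 0.115). The brightest *CDC16* probe set, 11754804_x_at, differed by -0.07 with siTDRD9-2 and by -0.09 with siTDRD9-1 (standard error 0.0893), and the groups overlapped there and at the other 3. The dim 11760270_at, designed on the same record as 11746106_a_at, differed by -0.04 and -0.10.

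Of the 4 *CDC23* probe sets, the brightest, 11757838_s_at, read 9.31, 9.19 and 9.12 with siTDRD9-2, 9.03, 9.19 and 9.07 with siTDRD9-1, and 9.19, 9.36 and 9.55 with siControl. Its differences were -0.16 with siTDRD9-2 and -0.27 with siTDRD9-1 (standard error 0.107), and the groups overlapped. The probe set 11752517_a_at read 7.44, 7.53 and 7.69 with siTDRD9-2, 7.46, 7.31 and 7.41 with siTDRD9-1, and 7.31, 6.92 and 7.35 with siControl. There the siTDRD9-2 cultures lay above siControl (0.36, standard error 0.121) and the siTDRD9-1 cultures overlapped it (0.20). The remaining pair went opposite ways, with 0.36 and 0.19 at 11721444_a_at and -0.29 and -0.28 at 11759740_x_at for siTDRD9-2 and siTDRD9-1. The second siControl culture was the lowest of the 9 arrays at both *CDC16* probe sets that stood higher and at the 2 *CDC23* probe sets with positive differences.

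*ANAPC7* encodes an accessory tetratricopeptide subunit of the arm. Its probe set 11735948_a_at read 7.09, 7.21 and 7.17 with siTDRD9-2, 6.70, 7.13 and 6.69 with siTDRD9-1, and 7.26, 7.37 and 7.55 with siControl. Every siRNA culture was below every siControl culture, the mean differences were -0.23 with siTDRD9-2 and -0.56 with siTDRD9-1 (standard error 0.126), and the second siTDRD9-1 culture lay nearest to the other groups. The probe set 11726620_at was also lower in every siRNA culture (-0.10 and -0.23), while the brightest, 11757527_a_at, overlapped (-0.09 and -0.13).

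*CDC26* encodes a small subunit that stabilizes CDC16. Its single-gene probe set 11757062_at read 9.83, 9.80 and 9.64 with siTDRD9-2, 9.57, 9.59 and 9.38 with siTDRD9-1, and 9.92, 10.00 and 9.92 with siControl. The 3 groups did not overlap, with siControl highest and siTDRD9-1 lowest, at differences from siControl of -0.19 with siTDRD9-2 and -0.43 with siTDRD9-1 (standard error 0.0941). A second probe set from the same record, 11757063_s_at, is assigned to *FKBP15* as well as *CDC26* and was left out of the members. It differed by -0.01 with siTDRD9-2 and -0.21 with siTDRD9-1.

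The platform subunits *ANAPC1*, the scaffold, and *ANAPC4*, a connector, had 1 probe set each. *ANAPC1* (11721892_a_at) read 8.33, 8.30 and 8.30 with siTDRD9-2, 8.01, 8.17 and 8.09 with siTDRD9-1, and 8.30, 8.42 and 8.51 with siControl. The siTDRD9-1 cultures lay wholly below siControl there and the siTDRD9-2 cultures overlapped it, at differences of -0.10 with siTDRD9-2 and -0.32 with siTDRD9-1 (standard error 0.0886). *ANAPC4* (11720137_a_at) read 9.50, 9.47 and 9.25 with siTDRD9-2, 9.23, 9.49 and 9.27 with siTDRD9-1, and 9.48, 9.66 and 9.58 with siControl. Its differences were -0.17 and -0.24 (standard error 0.106), with overlapping groups.

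*ANAPC5*, a platform subunit with tetratricopeptide repeats, had both of its probe sets lower in every siTDRD9-2 culture than in any siTDRD9-1 culture. Its brightest probe set, 11715599_a_at, read 10.85, 10.84 and 10.88 with siTDRD9-2 and 11.34, 11.26 and 11.27 with siTDRD9-1, and siControl read 11.21, 11.32 and 11.21. The probe set 200098_PM_s_at read 10.64, 10.70 and 10.61 with siTDRD9-2 and 11.07, 11.06 and 11.05 with siTDRD9-1, and siControl read 11.04, 11.22 and 11.10. At both, the 3 siTDRD9-2 cultures were the lowest of the 9 and siTDRD9-1 overlapped siControl. From siControl they differed by -0.39 and -0.47 with siTDRD9-2 and by 0.04 and -0.06 with siTDRD9-1 (standard errors 0.0812 and 0.0843).

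The siTDRD9-2 minus siTDRD9-1 difference was -0.43 on the log2 scale at 11715599_a_at (0.741-fold, 95% interval -0.61 to -0.26, limma adjusted p = 0.0103) and -0.41 at 200098_PM_s_at (interval -0.59 to -0.22, adjusted p = 0.0167). Neither *ANAPC5* probe set passed the threshold of a false discovery rate (FDR) under 0.01. Over 16 other settings the adjusted p ran from 0.000228 to 0.0527 for the first and from 0.00112 to 0.067 for the second, with 4 of 16 below 0.01 for each.

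*ANAPC2* encodes the cullin-like subunit that holds the RING subunit. Its brightest probe set, 11720540_a_at, read 6.99, 7.07 and 7.24 with siTDRD9-2, 7.15, 6.85 and 6.89 with siTDRD9-1, and 7.15, 7.36 and 7.20 with siControl. The groups overlapped at all 3 *ANAPC2* probe sets. The differences were -0.13 and -0.27 at the brightest, 0.33 and 0.15 at 11752431_a_at and -0.30 and 0.01 at the dim 11760948_at, where the standard error was 0.208, the widest of the 29. The 3 probe sets of *FZR1*, the coactivator gene, differed by -0.09 to 0.10 with siTDRD9-2 and by -0.03 to 0.20 with siTDRD9-1, with standard errors of 0.0982 to 0.105. At 11724896_a_at alone the siTDRD9-1 cultures (6.51, 6.42 and 6.77) did not overlap siControl (6.42, 6.42 and 6.27), and the nearest cultures were equal to the digits shown.

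**Figure D2:**
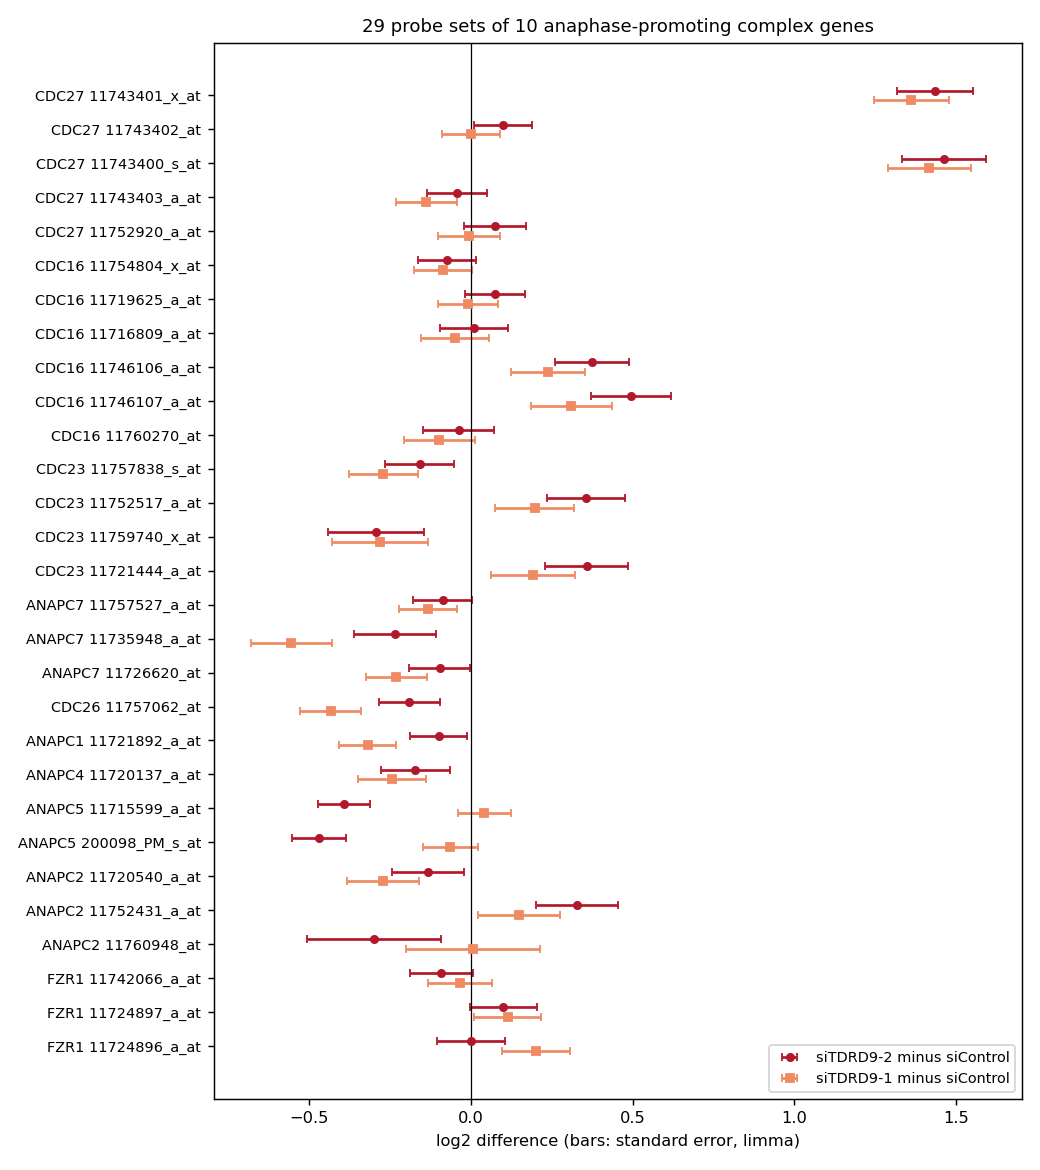
Log2 differences from siControl of the 29 probe sets of the 10 genes (horizontal axis, bars are limma standard errors), circles for siTDRD9-2 and squares for siTDRD9-1, ordered by role from the tetratricopeptide arm to the coactivator. The 2 *CDC27* probe sets from 1 record stand near 1.4, and the other 27 lie between -0.56 and 0.49.

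Over the 29 probe sets, 2 were called higher with each siRNA (FDR under 0.01 together with a minimum of 2-fold), both of *CDC27*, beside 0.605% of all 49293 probe sets with siTDRD9-2 and 0.489% with siTDRD9-1, and 0 were called lower (0.205% and 0.225% of all). Higher calls with both siRNAs at once were made for 0.325% of all probe sets and lower ones for 0.0365%. At the FDR alone, 2 were higher and 2 lower with siTDRD9-2 (2.95% and 2.23% of all), and 2 higher and 0 lower with siTDRD9-1 (2.41% and 2.12%). Without siControl replicate 2 or 3, or without any 1 of the siTDRD9-2 cultures, 2 in all passed the FDR with siTDRD9-2. The genes were chosen on these contrasts, and *CDC27* had passed the study's threshold beforehand. These counts are therefore no test, and nothing is read from them. With siTDRD9-2, 5 probe sets had all cultures above siControl and 5 all below (13.9% and 15.7% of all probe sets), and with siTDRD9-1, 5 had all above and 4 all below (12.3% and 14.8%). The median difference was -0.04 with siTDRD9-2 and -0.03 with siTDRD9-1, beside -0.02 and 0.00 over all probe sets. Taking the brightest probe set of each gene, the median was -0.12 with siTDRD9-2 and -0.19 with siTDRD9-1, where the medians over all genes were -0.06 and -0.03.

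In the comparison between the siRNAs, 0 of the 29 member probe sets passed an FDR under 0.01 in limma, beside 0.921% of all probe sets higher and 1.03% lower with siTDRD9-2, and thus 0 were called at 2-fold as well (0.112% and 0.195% of all). At an unadjusted p under 0.05, 3 were higher with siTDRD9-2 (*ANAPC7* 11735948_a_at, *CDC26* and *ANAPC1*) and 2 lower (both of *ANAPC5*), beside 10.7% and 9.82% of all probe sets. The 3 higher ones differed by 0.32 (95% interval 0.04 to 0.60, adjusted p = 0.177), 0.24 (0.04 to 0.45, adjusted p = 0.169) and 0.22 (0.03 to 0.41, adjusted p = 0.187). Groups did not overlap for 2 higher and 2 lower probe sets, beside 12.9% and 10.4% of all. At the *CDC27* pair the siRNAs differed by 0.07 (interval -0.18 to 0.33, limma adjusted p = 0.772) and 0.05 (-0.24 to 0.33, adjusted p = 0.879). These intervals leave room for differences from -0.24 to 0.33, and thus in favour of either siRNA. The median over the 29 was 0.08, beside -0.01 over all probe sets.

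**Figure D3:**
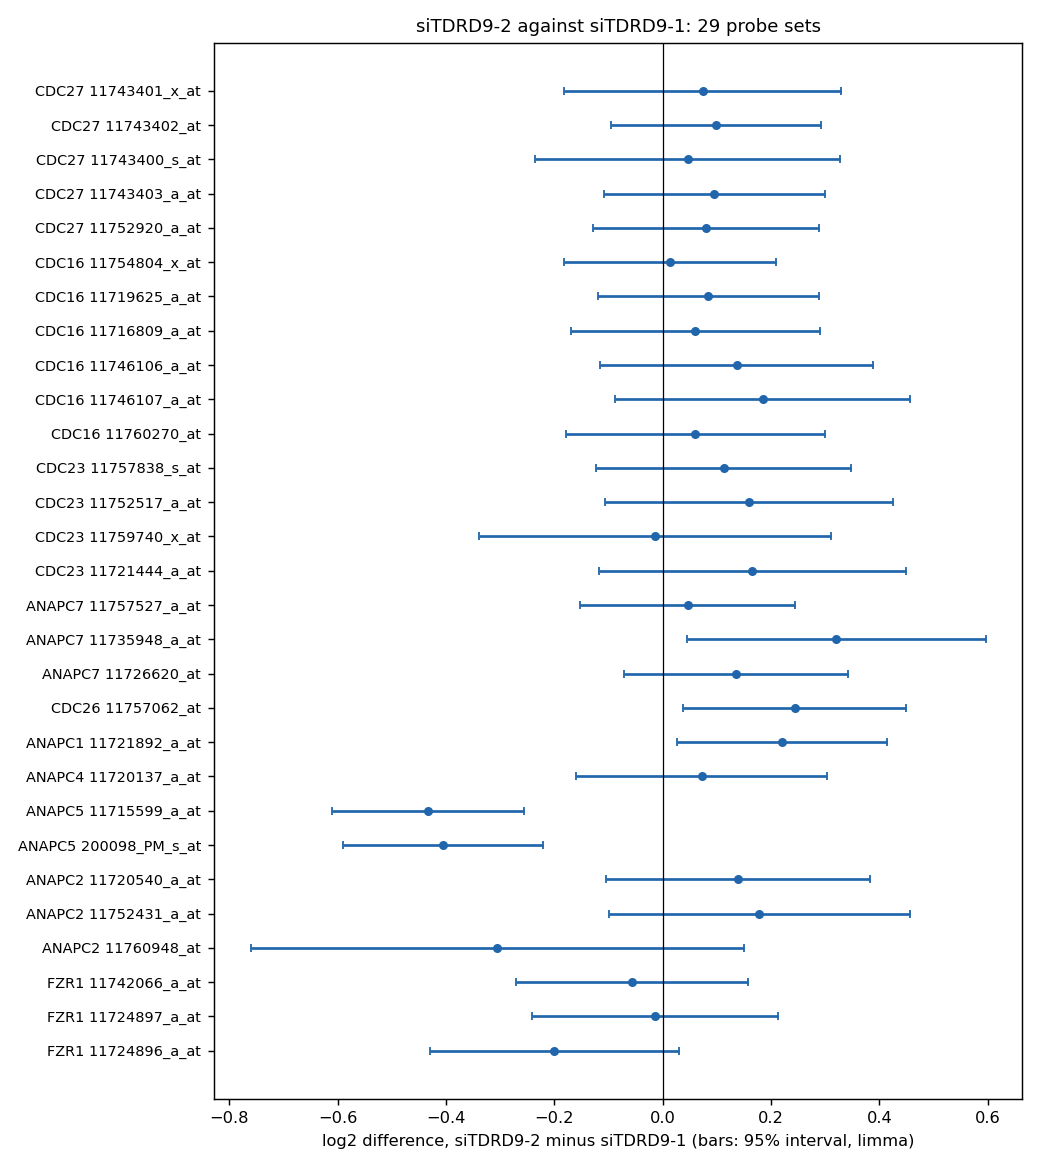
Log2 difference of siTDRD9-2 minus siTDRD9-1 for the 29 probe sets (horizontal axis), with 95% limma intervals. The intervals of both *ANAPC5* probe sets lie below 0, those of *ANAPC7* 11735948_a_at, *CDC26* and *ANAPC1* lie above 0, and the other 24 include 0.

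The remaining APC/C subunits were all measured, and the differences of these non-member genes from siControl were tested. This list and those below were also chosen with earlier results of these data known, which the adjusted p does not take into account. At the brightest probe set, 0 of 5 passed the FDR with siTDRD9-2 in limma (1 higher and 3 lower at an unadjusted p under 0.05, beside 7.50% and 16.0% of all genes) and 2 of 5 fell with siTDRD9-1, *ANAPC11* and *ANAPC10*, where 3.03% of all genes passed the FDR lower and 1.32% higher with siTDRD9-2, and 2.80% lower and 1.25% higher with siTDRD9-1. The median difference was -0.24 with siTDRD9-2 and -0.43 with siTDRD9-1, against -0.06 and -0.03 over all genes. *ANAPC11*, the RING subunit that binds the ubiquitin-carrying enzyme, read 12.32, 12.30 and 12.14 with siTDRD9-2, 11.91, 11.97 and 12.09 with siTDRD9-1, and 12.46, 12.56 and 12.45 with siControl at 11721350_s_at. All siRNA cultures lay below siControl, with differences of -0.24 for siTDRD9-2 (adjusted p = 0.115) and -0.50 with siTDRD9-1 (standard error 0.0912, adjusted p = 0.00507). Between the siRNAs it differed by 0.26 (adjusted p = 0.126). Of the 5 *ANAPC11* probe sets, 3 passed the FDR with siTDRD9-1, and each of these missed it in 7 to 11 of 16 other settings.

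*ANAPC10*, which helps to bind the degron of substrates, read 7.86, 8.10 and 7.92 with siTDRD9-2, 7.74, 7.76 and 7.66 with siTDRD9-1, and 8.13, 8.27 and 8.25 with siControl. It fell by 0.50 with siTDRD9-1 (adjusted p = 0.0062) and differed by -0.26 with siTDRD9-2 (adjusted p = 0.102), with 0.24 between the siRNAs (adjusted p = 0.17). Neither *ANAPC11* nor *ANAPC10* reached 2-fold, and both missed the FDR when single arrays were left out. For *ANAPC10* the adjusted p was 0.0115, 0.0342 and 0.0301 without siControl replicate 1, 2 or 3, and 0.0267, 0.015 and 0.0198 without siTDRD9-1 replicate 1, 2 or 3. For *ANAPC11* it was 0.0147, 0.0298 and 0.0188 without siControl replicate 1, 2 or 3, and 0.0307 and 0.0167 without siTDRD9-1 replicate 1 or 2.

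*ANAPC15*, a subunit needed to turn over the checkpoint inhibitor on the complex, set the siRNAs apart. It read 9.67, 9.70 and 9.79 with siTDRD9-2 and 9.10, 9.05 and 9.11 with siTDRD9-1, and siControl read 9.42, 9.48 and 9.64. The siTDRD9-2 cultures lay above siControl and the siTDRD9-1 cultures below it, and siTDRD9-2 exceeded siTDRD9-1 by 0.63 (standard error 0.0893, adjusted p = 0.00225), where 1.11% of all genes passed the FDR higher and 1.27% lower. Against siControl the differences were 0.20 with siTDRD9-2 (adjusted p = 0.176) and -0.43 with siTDRD9-1 (adjusted p = 0.0103). The difference between the siRNAs had an adjusted p of 0.0136 and 0.0106 without siTDRD9-1 replicate 1 or 2 and of 0.0117 without siTDRD9-2 replicate 2. In a limma fit of the 2 siRNA groups alone it was 0.0106. *ANAPC13*, a small subunit, differed by -0.28 with siTDRD9-2 (adjusted p = 0.0465) and -0.09 with siTDRD9-1 (adjusted p = 0.573) at its brightest probe set. Its other probe set, 11754697_a_at, did not follow. Over 16 other settings it ran from -0.05 to 0.06 with siTDRD9-2 and from 0.09 to 0.21 with siTDRD9-1. With both probe sets averaged, *ANAPC13* differed by -0.14 and 0.03. *ANAPC16*, another small subunit, differed by -0.05 with siTDRD9-2 and -0.11 with siTDRD9-1 at its brightest probe set (adjusted p = 0.802 and 0.539). Its other probe set, 11729130_at, named after its values were seen, fell by 0.56 with siTDRD9-2 (adjusted p = 0.00427) and differed by -0.12 with siTDRD9-1 (adjusted p = 0.561). The adjusted p of that fall was 0.0229 and 0.0185 without siControl replicate 2 or 3, and 0.013, 0.0213 and 0.0124 without siTDRD9-2 replicate 1, 2 or 3.

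The coactivator and the ubiquitin-carrying enzymes that work with the complex differed little. Of the 3 measured genes, 0 passed the FDR in limma in any contrast and 0 had an unadjusted p under 0.05. *CDC20*, the coactivator used in mitosis, differed by 0.04 with siTDRD9-2 and by -0.13 with siTDRD9-1 (standard error 0.0847). *UBE2C*, which starts ubiquitin chains on APC/C substrates, differed by -0.02 and 0.00, and *UBE2S*, which extends them, by 0.06 and 0.21.

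Among the 10 inhibitors and spindle checkpoint genes, *MAD2L1* fell with siTDRD9-1. It encodes MAD2, which captures CDC20 at unattached kinetochores. Its brightest probe set, 11720185_a_at, read 10.73, 10.57 and 10.51 with siTDRD9-2, 9.63, 9.68 and 9.83 with siTDRD9-1, and 10.88, 10.87 and 10.83 with siControl. The siTDRD9-1 cultures stood apart below both other groups. Against siControl the difference was -0.26 with siTDRD9-2 (adjusted p = 0.1) and -1.15 with siTDRD9-1 (standard error 0.0929, adjusted p = 6.18e-05). The difference between the siRNAs was 0.89 (standard error 0.0929, adjusted p = 0.000531). Both differences passed the FDR in the 16 other settings, with adjusted p up to 0.000875 against siControl and up to 0.00638 between the siRNAs. The probe sets 11720186_s_at and 11748136_a_at were also at least 2-fold lower with siTDRD9-1 (-1.12 and -1.05), and the fourth, 11761699_at, was dim at a mean of 2.65.

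The other 9 inhibitor and checkpoint genes did not pass the FDR against siControl or between the siRNAs, beside 1.11% to 3.03% of all genes per direction and contrast. *FBXO5*, which encodes the interphase inhibitor EMI1, differed by -0.52 with siTDRD9-2 (adjusted p = 0.0175) and -0.22 with siTDRD9-1 (adjusted p = 0.323). *TRIP13*, an ATPase that remodels MAD2, differed by -0.31 with siTDRD9-2 (adjusted p = 0.0413) and -0.22 with siTDRD9-1 (adjusted p = 0.144). *BUB3*, a subunit of the checkpoint inhibitor, differed by -0.21 and -0.20 (adjusted p = 0.205 and 0.237) at its brightest probe set. With its 3 probe sets averaged it differed by -0.04 and -0.05. The list had a median of -0.08 with siTDRD9-2 and -0.15 with siTDRD9-1, and 1 gene was higher and 3 were lower with siTDRD9-2 and 3 lower with siTDRD9-1 at an unadjusted p under 0.05, where 7.50% of all genes were higher and 16.0% lower with siTDRD9-2, and 6.99% higher and 16.0% lower with siTDRD9-1.

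**Figure D4:**
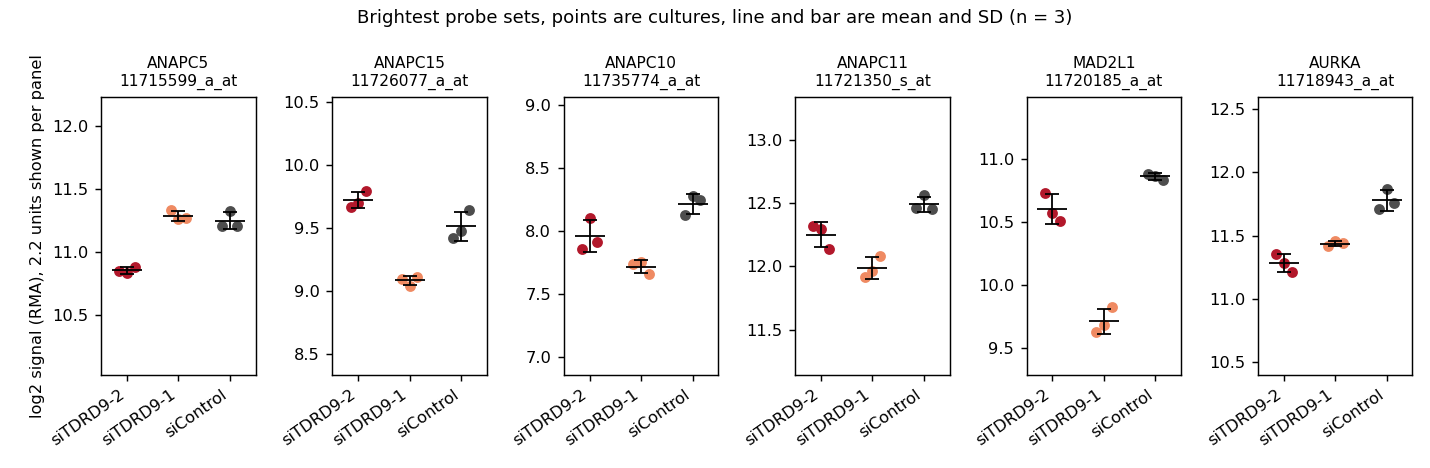
Log2 signal (RMA, vertical axis, 2.2 units in every panel) at the brightest probe set of *ANAPC5*, *ANAPC15*, *ANAPC10*, *ANAPC11*, *MAD2L1* and *AURKA*, with points for the 3 cultures per group and lines and bars for the mean and SD. *ANAPC5* is lowest with siTDRD9-2, while *ANAPC15*, *ANAPC10*, *ANAPC11* and *MAD2L1* are lowest with siTDRD9-1.

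Of the 22 measured genes whose proteins are APC/C substrates, at the brightest probe set 2 fell with siTDRD9-2 at the FDR (3.03% of all genes) and 0 passed it with siTDRD9-1 in limma (2.80% lower). At an unadjusted p under 0.05, 12 were lower with siTDRD9-2 and 6 with siTDRD9-1 (16.0% of all genes in each), and 0 were higher in either (7.50% and 6.99%). The medians were -0.26 with siTDRD9-2 and -0.19 with siTDRD9-1. *AURKA*, the Aurora A kinase gene, read 11.35, 11.28 and 11.22 with siTDRD9-2, 11.41, 11.46 and 11.44 with siTDRD9-1, and 11.71, 11.87 and 11.76 with siControl. All siRNA cultures were below siControl, with differences of -0.50 for siTDRD9-2 (adjusted p = 0.00325) and -0.34 for siTDRD9-1 (adjusted p = 0.0249). Without siControl replicate 2 or 3 the adjusted p of the first was 0.0218 or 0.0134, and without siTDRD9-2 replicate 2 or 3 it was 0.0164 or 0.0115.

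*ANLN*, the gene of the cytokinesis scaffold anillin, read 10.42, 10.22 and 10.49 with siTDRD9-2, 10.87, 10.85 and 10.94 with siTDRD9-1, and 10.94, 11.03 and 11.19 with siControl at 11724464_a_at. It fell by 0.68 with siTDRD9-2 (adjusted p = 0.00155), which passed the FDR in all 16 other settings, and differed by -0.16 with siTDRD9-1 (adjusted p = 0.387). The difference between the siRNAs at this probe set was -0.51 (adjusted p = 0.0133). Of the 4 *ANLN* probe sets, 11724466_x_at and 11724465_a_at also fell with siTDRD9-2, by 0.51 each (adjusted p = 0.00655 and 0.00538). They missed the FDR there in 8 and 6 of 16 other settings. Between the siRNAs they differed by -0.53 (11724466_x_at, adjusted p = 0.0103) and -0.55 (11724465_a_at, adjusted p = 0.00685), and the second missed the FDR in 9 of 16 other settings. The remaining *ANLN* probe set did not pass the FDR in any contrast. *NUSAP1*, a spindle protein gene, differed by -0.35 and -0.36 (adjusted p = 0.0295 and 0.031), and *CDCA3*, the gene of a trigger of mitotic entry, by -0.27 and -0.37 (adjusted p = 0.0694 and 0.0198), with siTDRD9-2 and siTDRD9-1. With all probe sets of a gene averaged, *NUSAP1* differed by -0.24 and -0.22 and *CDCA3* by -0.20 and -0.16.

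Of the 52 substrate probe sets, 5 were lower and 1 higher at the FDR with siTDRD9-2 (2.23% and 2.95% of all probe sets). With siTDRD9-1, 1 was lower and 1 higher (2.12% and 2.41%). The lower ones were those of *AURKA* and *ANLN* above with siTDRD9-2, and with both siRNAs the *NEK2* probe set 11761821_at, named after its values were seen. *NEK2* encodes a kinase of centrosome separation. This dim probe set read 3.08, 2.92 and 3.02 with siTDRD9-2, 3.13, 3.17 and 2.98 with siTDRD9-1, and 3.69, 3.90 and 3.62 with siControl. In the siTDRD9-2 cultures it fell by 0.73 (adjusted p = 0.000996). In the siTDRD9-1 cultures it fell by 0.64 (adjusted p = 0.00237), with an adjusted p of 0.0139 without siControl replicate 2 and of 0.0123 without siTDRD9-1 replicate 1. The other 6 *NEK2* probe sets did not pass the FDR, and the brightest, 11722252_x_at, differed by -0.33 with siTDRD9-2 (adjusted p = 0.0762) and -0.21 with siTDRD9-1 (adjusted p = 0.284).

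Of the same 52 probe sets, 1 passed both the FDR and 2-fold with each siRNA, the *CENPF* probe set 11743295_a_at, which is named after its values were seen. Over all probe sets, 0.605% were called higher and 0.205% lower with siTDRD9-2, and 0.489% higher and 0.225% lower with siTDRD9-1. *CENPF* encodes a kinetochore protein. This probe set read 8.97, 9.15 and 9.12 with siTDRD9-2, 9.11, 9.14 and 9.24 with siTDRD9-1, and 7.38, 7.64 and 7.50 with siControl. It rose by 1.57 in the siTDRD9-2 cultures (adjusted p = 1.58e-05) and by 1.66 in the siTDRD9-1 cultures (adjusted p = 1.18e-05), with no overlap between the siRNA and siControl cultures. The brightest *CENPF* probe set, 11743296_a_at, differed by -0.35 (adjusted p = 0.0932) and -0.20 (adjusted p = 0.378), so the gene's 2 probe sets parted. Unlike at *CDC27*, the brightest probe set was not among those that stood higher.

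The core genes of the cullin-RING ligases, a related family of ubiquitin ligases, were given beside the APC/C for comparison. Of 9 genes, 0 passed the FDR in limma in any contrast, beside 1.11% to 3.03% of all genes per direction and contrast. At an unadjusted p under 0.05, 1 was higher and 1 lower with siTDRD9-2 (7.50% and 16.0% of all genes), and 1 higher and 6 lower with siTDRD9-1 (6.99% and 16.0%). The medians were -0.10 with siTDRD9-2 and -0.24 with siTDRD9-1. *CUL4A*, a cullin scaffold gene, differed by -0.27 with siTDRD9-2 (adjusted p = 0.22) and -0.59 with siTDRD9-1 (adjusted p = 0.0124). The medians of the APC/C lists were not tested against those of this list.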

How the data were processed

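Transcript levels of 9 cultures of NCI-H1993 cells were measured on Affymetrix PrimeView arrays. Used as deposited, the authors' log2 values come from RMA in Affymetrix Expression Console per the submitters' processing notes, which also name limma and give no versions. RMA gives all arrays 1 distribution, so a shift of all transcripts in a group is lost. Genes were taken from the array's annotation table, and 1832 probe sets with several genes and 2473 without one were named for no gene.

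With R 4.3.3 and limma 3.58.1, 49293 probe sets, without 102 controls, were fitted in 1 model of 3 groups with empirical Bayes moderation and Benjamini-Hochberg adjustment over all of them, after the code was tested on simulated data. Calls required an FDR under 0.01 and a minimum of 2-fold. For each of the 10 genes the brightest probe set (highest mean over 9 arrays) and that with the largest mean difference of both siRNAs were described, with others where probe sets of a gene differed. For each list of other genes, up to 4 with the lowest p, all other subunits and *CDC20* were named. Of 42 listed regulators, subunits and substrates, 40 had a single-gene probe set. The genes and lists were chosen with earlier results of these data known. Sequences came from RefSeq tables of GRCh38.p14. The study describes 3 independent transfection experiments, and the labels give a replicate number within each group. Whether same-numbered cultures share an experiment is not stated in the labels. Alternatives were a fit of 2 groups, a replicate block, array weights, an intensity trend, cyclic loess, median centring, leaving out probe sets with means under 5, an FDR under 0.05 with 1.5-fold, gene means, and leaving out arrays singly. The number of arrays limits the precision.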

Additional observations from a re-analysis of the deposited data

Results flagged for a closer look

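The siRNAs differed at the brightest probe set of *ANAPC15*, by 0.63 (siTDRD9-2 minus siTDRD9-1), and of *MAD2L1*, by 0.89, with limma adjusted p of 0.00225 and 0.000531. Each is a direct test of the difference between siRNAs that target the same transcript. The siRNAs did not lower it equally, with a mean *TDRD9* signal of 6.10 with siTDRD9-2 and 4.62 with siTDRD9-1, against 6.80 with siControl. The *ANAPC15* difference missed the FDR in 4 of 16 other settings.

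Outside the gene measurements, the probe set at the 3′ part of 18S ribosomal RNA averaged 1.48 higher in the 6 siRNA arrays than in the 3 siControl arrays, and every siRNA array lay above every siControl array.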

How the results depend on the processing

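The signs of the *CDC27* pair held in the 16 settings that give probe set values, at 1.26 to 1.55 over both siRNAs. Over the 29 member probe sets, 898 of 926 differences from siControl kept their sign. The tests of siTDRD9-2 against siTDRD9-1 and of other named genes gave 1996 values, of which 1948 kept their sign, 73 lost the threshold and 56 gained it.

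Counts are given for siTDRD9-1 minus siControl, siTDRD9-2 minus siControl and siTDRD9-2 minus siTDRD9-1, in that order. All called probe sets numbered 352, 399 and 151. Past the FDR were 2, 4 and 0 of the 29 member probe sets and 3, 2 and 2 of the 40 other APC/C genes. At an FDR under 0.05, with 1.5-fold for the calls, there were 1971, 2393 and 1189 calls, 5, 5 and 2 member probe sets and 8, 6 and 4 other genes. With 1 value per gene there were 39, 38 and 46 calls, 0 of them members in the first and second contrasts, 2 members past the FDR in the second and 1 in the third, and 5 other genes in the first and 4 in the third. An intensity trend gave 4 members in the first contrast and 2 in the third, and 7, 7 and 4 other genes. Array weights gave 7 members in the first and 4 in the third, and 9, 5 and 5 other genes. Without dim probe sets there were 4 members in the first and 2 in the third, and 5 other genes in the first and 4 in the third. Cyclic loess gave 2 members in the third, and a fit of 2 groups gave 2 members in the second and 1 other gene in the third. The cause of these moves was not tested. As the members were chosen on the first and second contrasts, nothing is read from their counts there, here or below. The share of all probe sets past the FDR was not counted in each setting. A rise or fall in these counts is thus not read as particular to the members or the other APC/C genes.

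With single arrays left out, calls ran from 282 to 404, 337 to 486 and 114 to 181, members past the FDR from 2 to 3, 2 to 4 and 0 to 0, and other genes from 1 to 4, 1 to 2 and 1 to 2. No clear pairing by replicate number was seen: 9 correlations of same-numbered deviations ran from -0.15 to 0.15, with 3 of 9 highest at their own number. With 3 cultures per group this cannot settle whether same-numbered cultures share an experiment. The replicate block kept the counts within 1.5 times, and gave *ANAPC11* an adjusted p of 0.0117 with siTDRD9-1.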
